A study of Mus musculus with 6 samples.

Results

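The tumour necrosis factor (TNF) superfamily, its receptors and the NF-kB pathway downstream of them were examined as 61 genes of the 19938 that had a row of their own on the arrays. The genes were taken by symbol: Tnf, Lta, Ltb, Fas, Fasl, Cd40, Cd40lg, the numbered Tnfsf, Tnfrsf, Tnfaip and Traf genes, the NF-kB subunits, their inhibitors and the IKK kinases. They comprised 14 ligands, 22 receptors, 6 TRAF adaptors, 3 IKK kinases, 4 NF-kB subunits, 4 NF-kB inhibitors and 8 Tnfaip genes. A gene with several rows was read from its brightest, by mean level over all arrays. A few genes of the pathway had no such row and were not analysed here, and 1 further row, shared by Tnfsf12, Tnfsf13 and their fusion transcript, is described apart.

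Hearts of male FVB mice were compared, 3 wild type and 3 A2a-R transgenic littermates with 1 array each. The inducible transgene drives the A2a receptor for adenosine, which couples to cyclic AMP production, and is restricted to the heart. Neither the promoter nor the inducing agent is stated in the labels read here, and the receptor's own transcript was not analysed here. All 6 mice, controls included, had undergone transverse aortic constriction (TAC), a surgical narrowing of the aorta that loads the left ventricle with pressure, at 8 weeks of age, and the hearts were taken after 14 weeks. No unoperated heart was analysed, so every difference below is between genotypes within pressure-loaded hearts. Values are log2 expression levels, on which a step of 1 is a doubling, and differences are transgenic minus wild type.

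TNF superfamily ligands are trimeric proteins, made mostly by immune cells, that cluster receptors on the target cell. The receptors bind either TRAF adaptors or death domain proteins, and the TRAF branch activates the IKK kinases. In the canonical route IKK removes the inhibitor IkB from dimers that contain RelA or c-Rel. In the non-canonical route the p100 product of Nfkb2 is cut to p52, the partner of RelB. NF-kB then switches on its own inhibitors, such as Nfkbia and Tnfaip3. In the pressure-loaded heart TNF is known as a cytokine of cardiomyocytes, fibroblasts and macrophages, acting through the receptors Tnfrsf1a and Tnfrsf1b.

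The arrays correlated at r = 0.9958 to 0.9973 within a genotype and at 0.9926 to 0.9957 between genotypes, across genes, which are not independent replicates. The mean level of 6 cardiomyocyte markers, among them Myh6 and Tnnt2, spanned 13.35 to 13.41 over wild-type hearts and 13.39 to 13.44 over transgenic ones. The mean level of 10 macrophage markers spanned 8.35 to 8.51 over wild-type hearts and 8.69 to 8.84 over transgenic ones, and 10 of 10 were higher. None of the 10 passed in limma (lowest adjusted p = 0.0503). An unadjusted limma p below 0.05 was found for 7, against 6.32% of all genes in that direction. In 8 the groups did not overlap, against 7.79% of all genes in that direction. The mean level of 6 endothelial markers also separated the genotypes, downward, at 9.9967 to 10.035 against 9.9183 to 9.995. Of these, 5 were lower and 0 passed. Only 1, Kdr, the VEGF receptor, had an unadjusted limma p below 0.05, as had 8.26% of all genes in that direction. Kdr differed by -0.14 (limma adjusted p = 0.299). The mean levels of T cell, B cell and NK cell markers gave overlapping groups. They were 6.04 to 6.09 against 6.08 to 6.20 for 6 T cell markers. For 4 B cell markers they were 5.55 to 5.66 against 5.52 to 5.60, and for 5 NK cell markers 5.33 to 5.46 against 5.38 to 5.40. The dimmest 40% of rows, with a mean level under 6.57, held 5 of these T cell, 3 B cell and 4 NK cell markers. Near background an array understates a difference, so overlap does not show that these cells were equally abundant. Within the B cell list Cd79a differed by -0.35 and Ms4a1 by 0.19 (limma adjusted p = 0.137 and 0.288). Their mean levels, 4.49 and 4.925, lay in those dim rows. Both had groups that did not overlap, as had 20.2% of all genes. An unadjusted limma p below 0.05 was found for 2 B cell, 1 T cell and 1 NK cell markers. These were 50%, 16.7% and 20% of their lists, against 14.6% of all genes. In whole hearts a change in the number of cells of a type and a change in RNA per cell cannot be told apart.

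None of the 61 genes passed the test between genotypes. At a limma adjusted p below 0.05 there were 0 of 61, against 0.993% of all 19938 genes (0.547% higher and 0.446% lower), and 0 also under each of 15 alternative fits. At an unadjusted p below 0.05 there were 9 members, 5 higher and 4 lower, or 14.8% against 14.6% of all genes (6.32% higher and 8.26% lower). The 3 transgenic hearts did not overlap the 3 wild-type hearts in 9 members, 6 higher and 3 lower, against 20.2% of all genes. Of the 61, 27 were higher and 34 lower, with a median difference of -0.02 beside -0.01 over all genes. The quartiles were -0.09 and 0.09, and the extremes were -0.46 for Tnf and 0.29 for Tnfsf13b. The lowest adjusted p among members was 0.154, that of Nfkb2.

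**Figure D1:**
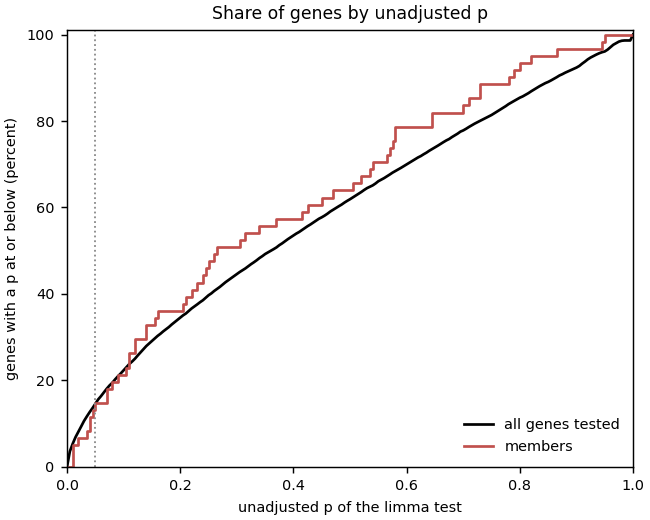
Cumulative share of genes, in percent, whose unadjusted limma p lies at or below the value on the x axis, for the 61 members (red) and all 19938 genes tested (black); the dotted line marks 0.05. The curves meet at 0.05, where 14.8% of members and 14.6% of all genes lie, and no member has a p of 0.001 or less, against 1.44% of all genes.

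The precision bounds what could have been missed. For 57 of 61 members the 95% interval of the difference lay within -0.5 to 0.5, that is, within a 1.41-fold change either way, and for 38 it lay within -0.3 to 0.3. The 4 with a wider reach were Tnf, Nfkbiz, Tnfrsf23 and Tnfrsf11b. The dimmest 40% of rows, with a mean level under 6.57, held 22 members, 11 of them ligands, and near background an array understates a difference in RNA. Among the 22 were Tnf, the member with the largest difference, and Tnfsf18, Lta and Tnfrsf11b.

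**Figure D2:**
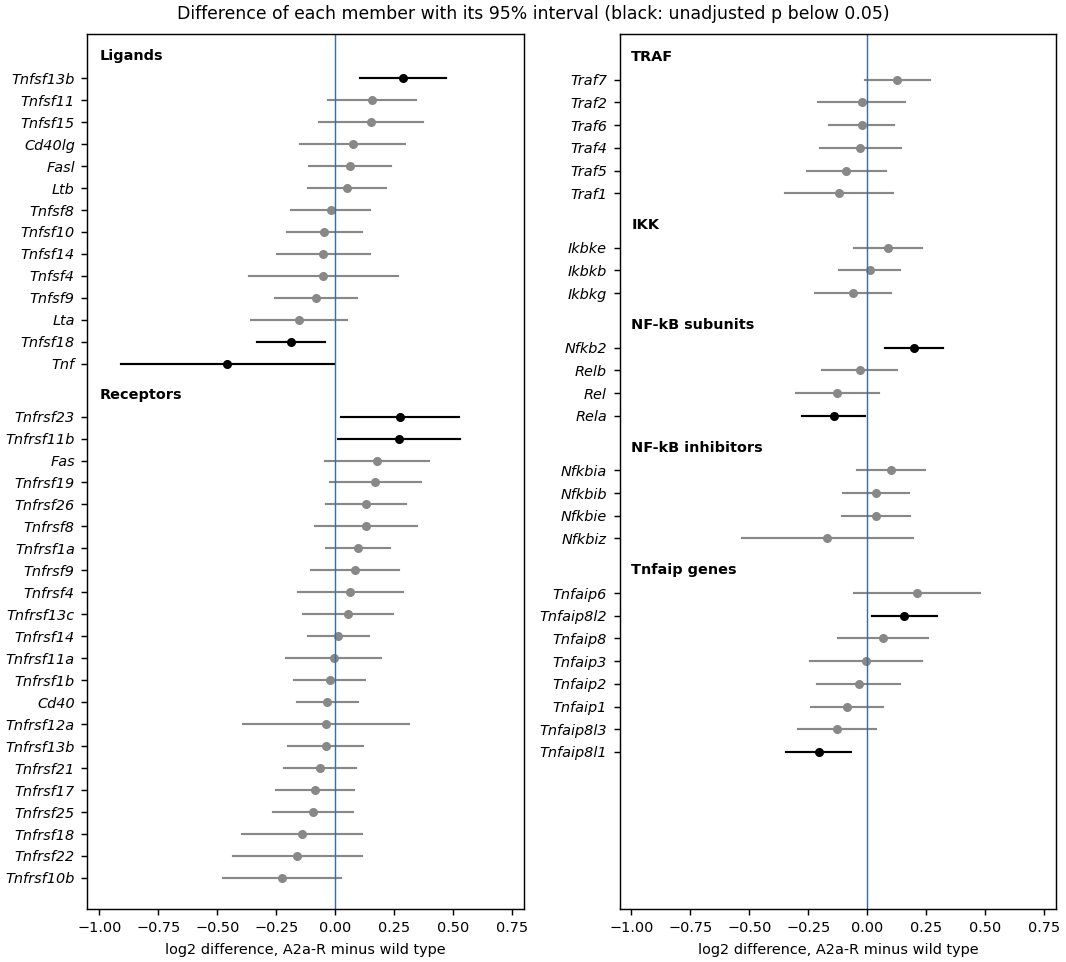
Log2 difference, transgenic minus wild type (x axis), of each of the 61 members with its 95% interval from limma, grouped by role; black marks an unadjusted p below 0.05. The 9 black intervals lie on both sides of 0, and Tnf has the widest, from -0.91 to -0.01.

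Among the ligands, 6 were higher and 8 lower, with a median of -0.03. An unadjusted limma p below 0.05 was found for 3 of 14, or 21.4% against 14.6% of all genes. Tnf, the founding cytokine of the family, stood at 6.62, 6.90 and 6.29 in the wild-type hearts and at 6.10, 5.82 and 6.52 in the transgenic hearts. The groups overlapped, because transgenic heart 3 lay above wild-type heart 3. The difference was -0.46 ± 0.20 (SE), a 1.37-fold lower level, with a limma adjusted p of 0.333. Without transgenic heart 2 it was -0.29, and without transgenic heart 3 it was -0.64. Lta, which encodes lymphotoxin alpha and lies next to Tnf on chromosome 17, had levels of 5.93, 6.01 and 5.84 against 5.95, 5.68 and 5.69, a difference of -0.15 ± 0.09. Ltb, its membrane-bound partner, differed by 0.05 ± 0.07.

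Tnfsf13b, which encodes BAFF, the survival factor of B cells made by myeloid cells, had the largest upward difference of the family. Its levels were 6.71, 6.78 and 6.51 in wild-type and 6.96, 7.0 and 6.90 in transgenic hearts. Each transgenic heart exceeded each wild-type heart, as was so in the upward direction for 7.79% of all genes. The difference was 0.29 ± 0.08 (SE), 1.22-fold, with an unadjusted limma p of 0.00665 and an adjusted p of 0.157. Its receptors lay nearer 0: Tnfrsf13c differed by 0.05 ± 0.08, Tnfrsf13b, the receptor TACI, by -0.04 ± 0.07, and Tnfrsf17, the plasma cell receptor BCMA, by -0.09 ± 0.07. The level of macrophage markers separated the same 2 groups of hearts, with Cd68 at 0.62 ± 0.12 and Lyz2 at 0.41 ± 0.10, both short of the threshold (limma adjusted p = 0.0622 and 0.112). The part of macrophage abundance in the Tnfsf13b difference was not tested.

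Tnfsf18, the ligand of the T cell costimulatory receptor GITR, lay lower in every transgenic heart, at 5.76, 5.86 and 5.81 against 5.93, 6.07 and 5.99. Its difference was -0.19 ± 0.06 (SE, limma adjusted p = 0.227), and downward separation of the groups was found in 12.4% of all genes. Its receptor Tnfrsf18 read 6.54, 6.52 and 6.55 in wild-type hearts and 6.50, 6.57 and 6.12 in transgenic hearts, so that transgenic heart 3 alone lay outside the wild-type range by more than 0.05. Tnfsf11, which encodes RANKL, the ligand that drives osteoclast formation, differed by 0.16 ± 0.08 with overlapping groups. Tnfsf15, an endothelial ligand, differed by 0.15 ± 0.10. The other ligands were closer to 0: Cd40lg at 0.07, Fasl at 0.06, Tnfsf8 at -0.02, Tnfsf10 (TRAIL) at -0.05, Tnfsf4 and Tnfsf14 at -0.05 each, and Tnfsf9 at -0.08. The shared row of Tnfsf12 and Tnfsf13, which encode TWEAK and APRIL, differed by -0.05 ± 0.06.

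**Figure D3:**
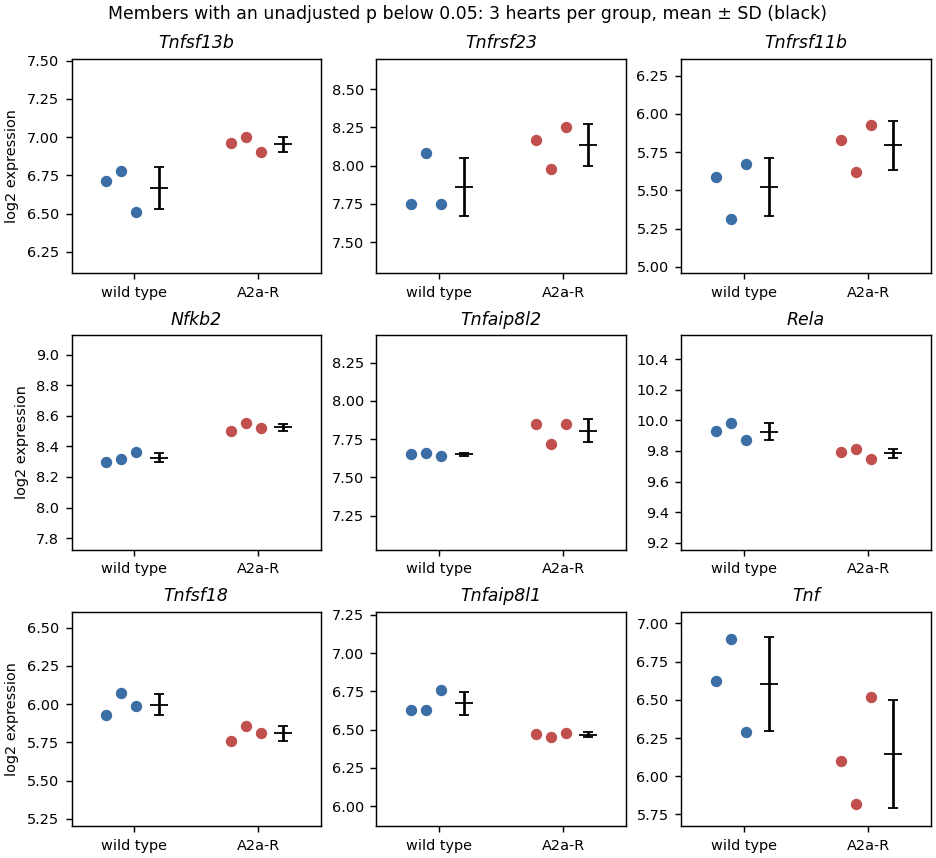
Log2 expression (y axis, the same span of 1.4 in each panel) of the 9 members with an unadjusted p below 0.05, in the 3 wild-type hearts (blue) and the 3 A2a-R transgenic hearts (red), with mean and SD in black. The groups are apart in Tnfsf13b, Nfkb2, Tnfaip8l2, Rela, Tnfsf18 and Tnfaip8l1 and overlap in Tnfrsf23, Tnfrsf11b and Tnf.

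The 22 receptors were evenly split, 11 higher and 11 lower, with a median of 0.00. Neither TNF receptor passed the test. Tnfrsf1a, the widely expressed receptor with a death domain, read 8.96, 9.09 and 9.04 against 9.10, 9.14 and 9.14. This was a separation of the groups by 0.01 and a difference of 0.10 ± 0.06 (SE, limma adjusted p = 0.494). Tnfrsf1b, the receptor without a death domain, read 8.06, 7.91 and 7.92 against 7.98, 7.88 and 7.96, with an interval of the difference from -0.17 to 0.13.

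The death receptors differed in sign. Fas, the receptor of Fas ligand, read 7.19, 6.94 and 7.27 in wild-type and 7.42, 7.29 and 7.22 in transgenic hearts, a difference of 0.18 ± 0.10 (SE). Tnfrsf10b, the mouse TRAIL death receptor, read 7.72, 7.54 and 7.38 against 7.28, 7.18 and 7.50, a difference of -0.23 ± 0.11. In both the groups overlapped, with limma adjusted p of 0.447 and 0.383. The TRAIL-binding decoy receptors Tnfrsf22 and Tnfrsf23 lie side by side on chromosome 7. Tnfrsf23 read 7.75, 8.08 and 7.75 against 8.17, 7.98 and 8.25, a difference of 0.27 ± 0.11, and Tnfrsf22 read 7.41, 7.81 and 7.65 against 7.52, 7.27 and 7.60, a difference of -0.16 ± 0.12. These decoys are close relatives in sequence, so probes may respond to both, and neither passed (0.298 and 0.595).

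Tnfrsf11b encodes osteoprotegerin, the soluble decoy that binds RANKL and TRAIL. Its levels were 5.59, 5.31 and 5.67 in wild-type and 5.83, 5.62 and 5.93 in transgenic hearts, with transgenic heart 2 inside the wild-type range. The difference was 0.27 ± 0.11 (SE), 1.21-fold, with a limma adjusted p of 0.319. Without wild-type heart 2 it was 0.16. The signalling receptor of RANKL, Tnfrsf11a, read 6.85, 6.91 and 6.84 against 6.72, 6.81 and 7.05, a difference of -0.01 ± 0.09.

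Tnfrsf12a encodes Fn14, the TWEAK receptor, which is induced in stressed muscle. Its levels were 10.24, 9.74 and 9.82 in wild-type and 9.99, 9.63 and 10.06 in transgenic hearts. The highest and the lowest value stood in different genotypes, the groups overlapped, and the difference was -0.04 ± 0.15 (SE) with an interval from -0.39 to 0.31. Cd40, a receptor of antigen-presenting cells, had all 6 hearts between 7.38 and 7.49. Tnfrsf19, an orphan receptor of the family, lay higher in every transgenic heart, at 7.12, 6.98 and 7.01 against 6.95, 6.70 and 6.95 (0.17 ± 0.08, limma adjusted p = 0.396). The lymphocyte receptors Tnfrsf4 (OX40), Tnfrsf8, Tnfrsf9, Tnfrsf14 and Tnfrsf25 lay between -0.09 and 0.13. Tnfrsf21, a death receptor, was at -0.06 and Tnfrsf26 at 0.13.

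**Figure D4:**
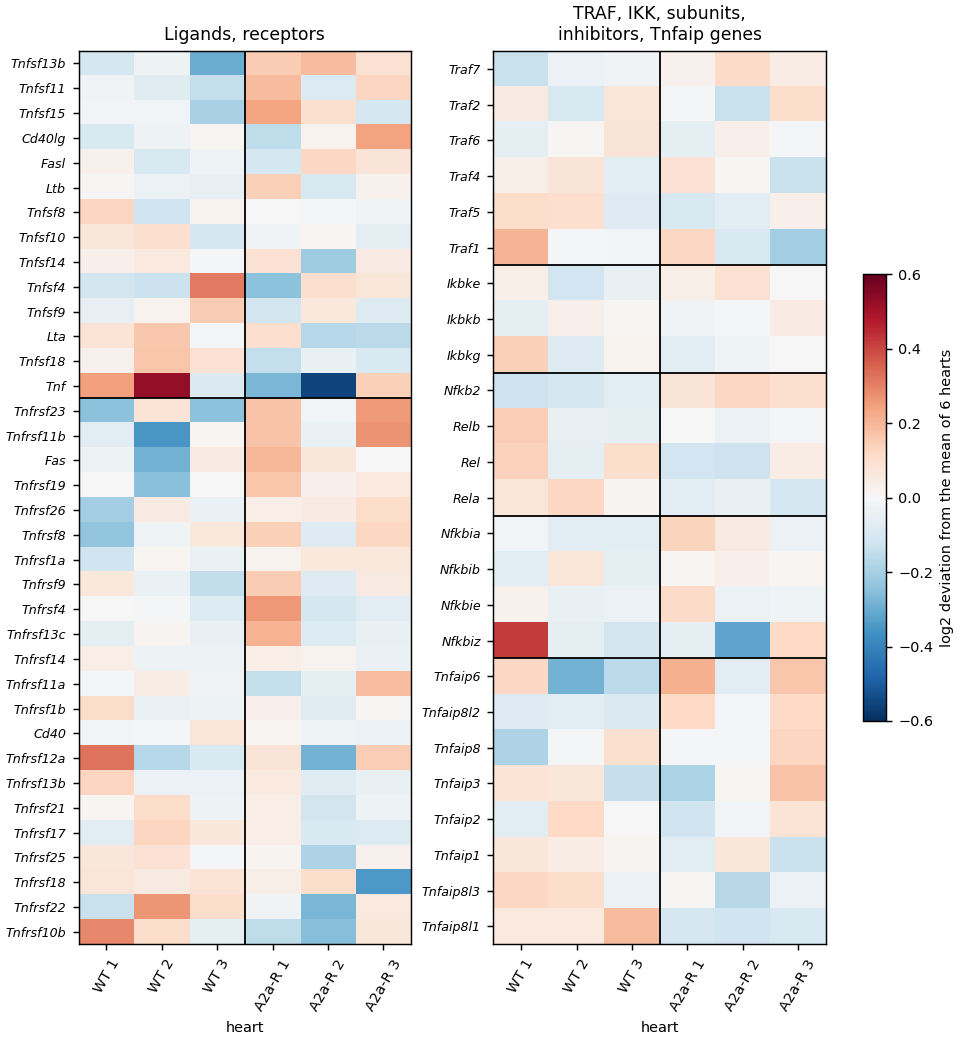
Deviation of each member's log2 level from its mean over the 6 hearts (colour, red above and blue below), with a column for each heart, wild type left and A2a-R transgenic right of the vertical line. Single hearts account for the strongest colours, such as wild-type heart 2 and transgenic heart 2 in Tnf and wild-type heart 1 in Nfkbiz and Tnfrsf12a.

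Below the receptors, none of the TRAF adaptors and IKK kinases had an unadjusted p below 0.05. Of 6 TRAF genes, 1 was higher and 5 lower, with a median of -0.03. Traf2, the main adaptor of the TNF receptors, read 7.98, 7.83 and 8.00 against 7.92, 7.79 and 8.03, and Traf6, which also serves Toll-like receptors, read 8.08, 8.14 and 8.21 against 8.08, 8.16 and 8.12. Both differed by -0.02. Traf7 was the exception in sign, at 8.85, 8.95 and 8.96 against 9.01, 9.10 and 9.03, with separated groups and a difference of 0.13 ± 0.06 (SE, limma adjusted p = 0.378). Traf1, Traf4 and Traf5 were at -0.12, -0.03 and -0.09. The catalytic kinase Ikbkb differed by 0.01 ± 0.06, the scaffold Ikbkg by -0.06 ± 0.07 and the related kinase Ikbke by 0.09 ± 0.06. All 3 kinase intervals lay within -0.3 to 0.3.

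The NF-kB subunits held the member with the smallest p. Nfkb2, which encodes p100 and p52 of the non-canonical route, read 8.30, 8.32 and 8.36 in wild-type and 8.50, 8.55 and 8.52 in transgenic hearts. The hearts of each genotype lay within 0.06 of each other and the groups were 0.14 apart. The difference was 0.20 ± 0.05 (SE), 1.15-fold, with an interval from 0.07 to 0.32, an unadjusted limma p of 0.00625 and an adjusted p of 0.154. Rela, which encodes the canonical subunit p65, lay on the other side, at 9.93, 9.98 and 9.87 against 9.79, 9.81 and 9.75. Its difference was -0.14 ± 0.06, with an adjusted p of 0.3. Rel, encoding c-Rel, read 9.02, 8.83 and 8.99 against 8.77, 8.76 and 8.93, a difference of -0.13 ± 0.08 with overlapping groups. Relb, the partner of p52, differed by -0.03 ± 0.07.

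The inhibitors, several of which are transcribed in response to NF-kB itself, gave no unadjusted p below 0.05. Nfkbia, the main IkB, read 9.06, 9.01 and 9.01 against 9.21, 9.13 and 9.04, a difference of 0.10 ± 0.06 (SE, limma adjusted p = 0.512). Nfkbib and Nfkbie each differed by 0.04 ± 0.06. Nfkbiz, an inducible nuclear member, read 7.66, 7.18 and 7.13 against 7.18, 6.92 and 7.36, and its difference of -0.17 ± 0.16 was -0.0017 without wild-type heart 1. Tnfaip3, the ubiquitin-editing enzyme that ends NF-kB signalling, read 6.59, 6.58 and 6.37 against 6.32, 6.52 and 6.68, a difference of -0.01 ± 0.10.

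The kappa B consensus, the site bound by NF-kB dimers, was searched on both strands in the RefSeq promoter windows (GRCm38.p6, 250 bases before to 50 after each start), which exist for 49 of the 61 members. It was found in 9 of the 49, or 18.4%, against 5.14% of 27025 genes in the table, and in 2 of 3 subunit genes and 2 of 3 inhibitor genes. A match is a run of letters and no evidence of binding. A stretch that holds matches upstream of a start is shown for each subunit and inhibitor gene that has one and for Tnfaip3, since these genes are textbook targets of the factor they regulate. They read 5′ to 3′ on the gene's strand, with the matches in capitals.
Nfkb2 (chr19:46304668-46304736, plus strand): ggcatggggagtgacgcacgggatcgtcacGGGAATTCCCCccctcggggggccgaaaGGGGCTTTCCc
Rel (chr11:23771021-23771091, minus strand): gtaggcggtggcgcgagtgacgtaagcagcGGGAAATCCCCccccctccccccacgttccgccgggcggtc
Nfkbia (chr12:55492648-55492706, minus strand): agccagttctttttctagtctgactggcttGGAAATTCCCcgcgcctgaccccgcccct
Nfkbie (chr17:45555564-45555633, plus strand): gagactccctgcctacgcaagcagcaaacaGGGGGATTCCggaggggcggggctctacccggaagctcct
Tnfaip3 (chr10:19015411-19015565, minus strand): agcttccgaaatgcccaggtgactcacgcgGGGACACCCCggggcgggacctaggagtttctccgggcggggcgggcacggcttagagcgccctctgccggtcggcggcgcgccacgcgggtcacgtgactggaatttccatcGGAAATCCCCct

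Nfkb2 has 3 windows with a match, one for each start in the table, and the first along the chromosome is shown. In that stretch the consensus begins at 3 positions, 2 of them overlapping, and Rel has 2 overlapping ones. Nfkbia and Nfkbie have 1 each and Tnfaip3 has 2 that lie apart. Of these 5 genes, 3 were higher and 2 lower, and none passed. The 9 members with a match comprised 6 higher and 3 lower, with a median difference of 0.05, and the 40 members whose windows held none comprised 16 higher and 24 lower, with a median of -0.02. The remaining matches were in Ltb, Tnfrsf8, Tnfrsf9 and Tnfaip8l1.

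The Tnfaip genes, which are unrelated apart from the Tnfaip8 group, included 3 higher and 5 lower. Their name refers to induction by TNF in cultured cells, but Tnfaip8l1, Tnfaip8l2 and Tnfaip8l3 are named for likeness to Tnfaip8. Tnfaip8l1 lay lower in every transgenic heart, at 6.47, 6.45 and 6.48 against 6.63, 6.63 and 6.76, a difference of -0.21 ± 0.06 (SE, limma adjusted p = 0.174). Tnfaip8l2, encoding TIPE2, a brake on immune cell activation found in myeloid cells and lymphocytes, lay higher in every transgenic heart, at 7.85, 7.72 and 7.85 against 7.65, 7.66 and 7.64, a difference of 0.16 ± 0.06 (0.280). As for Tnfsf13b, macrophage markers were higher in the same hearts, and their part in this difference was not tested. Tnfaip6, a secreted hyaluronan-binding protein, differed by 0.21 ± 0.12 with overlapping groups. Tnfaip1, Tnfaip2, Tnfaip8 and Tnfaip8l3 lay between -0.13 and 0.07.

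**Figure D5:**
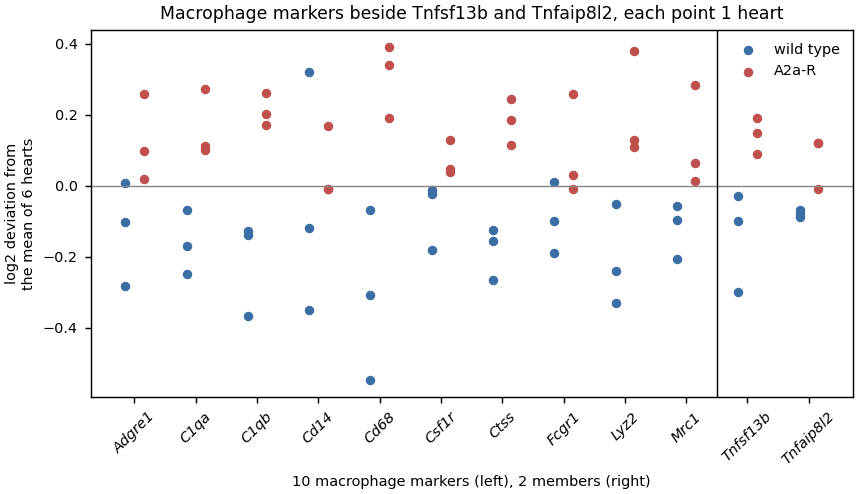
Deviation of log2 level from the mean over the 6 hearts (y axis) for 10 macrophage markers and, right of the line, the members Tnfsf13b and Tnfaip8l2, with 1 point for each wild-type (blue) and A2a-R transgenic (red) heart. Groups are apart in 8 of 10 markers and in both members, and Cd68 has the widest gap between group means at 0.62. Only these 2 members are drawn. Tnf, a cytokine of macrophages among other cells, differed by -0.46, and Cd40, a receptor of antigen-presenting cells, by -0.03, both with overlapping groups.

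Signalling proteins that link the receptors to NF-kB and to cell death, other than the members themselves, were taken from a separate list, of which 37 had a row. Of these, 28 were lower and 9 higher, where of all 19938 genes 10653 were lower and 9013 higher. In limma 0 passed, against 0.993% of all genes. An unadjusted p below 0.05 was found for 7, or 18.9% against 14.6% of all genes. Of these 7, 6 were lower, against 8.26% of all genes in that direction. The median of the 37 was -0.04. Only 2 of them were among the dimmest 40% of rows, and without those rows the median over all rows was -0.03. Map3k5, encoding the stress kinase ASK1 downstream of Traf2, read 9.22, 9.22 and 9.26 against 8.93, 9.01 and 9.01, a difference of -0.25 ± 0.06 (SE, adjusted p = 0.0955). It passed without the dimmest 40% of rows (0.0332) and with a trended and robust variance prior (0.0224). Tnip1, a binding partner of the Tnfaip3 protein, differed by -0.25 ± 0.07, Otulin, a linear ubiquitin hydrolase, by -0.26 ± 0.08 and Malt1, a paracaspase that activates NF-kB, by 0.17 ± 0.06 (adjusted p = 0.189, 0.202 and 0.224). Of 9 family genes that carry other names, 3 were higher and 6 lower and none had an unadjusted p below 0.05 in limma. The extremes of these were the ectodysplasin receptor Eda2r at -0.24 ± 0.11 and the neurotrophin receptor Ngfr at 0.10 ± 0.07.

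Genes known as NF-kB targets, again without the members, gave the only calls near the pathway. Of 36 with a row, 23 were higher and 12 lower, with a median of 0.05 against -0.01 over all genes. In limma 2 rose, against 0.547% of all genes in that direction. An unadjusted p below 0.05 was found for 13, of which 10 were higher, against 6.32% of all genes in that direction. The list was chosen with earlier results of these data known, so these shares describe it and test nothing. Gadd45b, a stress-induced regulator of MAP kinases, rose from 7.34, 7.38 and 7.49 to 8.10, 7.98 and 7.77, by 0.55 ± 0.09 (SE, adjusted p = 0.0370). Lcn2, the iron-sequestering lipocalin-2, rose from 7.29, 7.21 and 7.68 to 8.12, 8.02 and 8.02, by 0.66 ± 0.12 (0.0474). Neither passed when all rows of the table were tested (0.0589 and 0.0754). With any 1 heart left out, the adjusted p of Gadd45b reached 0.150 and held only without transgenic heart 3 (0.0263), and that of Lcn2 reached 0.153 and held only without wild-type heart 3 (0.0111). The hyaluronan receptor Cd44 differed by 0.37 ± 0.08 and the interleukin-1 receptor antagonist Il1rn by 0.26 ± 0.06 (limma adjusted p = 0.0920 and 0.105). Cd44 passed with arrays centred on medians (0.0464), without the dimmest rows (0.0364), with the trended prior (0.0406) and with array weights (0.0364), and its adjusted p was up to 0.261 with 1 heart left out. The 3 targets that were lower at an unadjusted limma p below 0.05 were Csf1, Plau and Xiap, each with groups apart. They differed by -0.25 ± 0.08, -0.29 ± 0.10 and -0.17 ± 0.06 (limma adjusted p = 0.193, 0.251 and 0.261). The adhesion genes Icam1 and Vcam1 differed by 0.06 ± 0.07 and 0.05 ± 0.06, and Il1b by -0.22 ± 0.12. Macrophage markers were higher in the same hearts, and their part in the target list was not tested.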

How the data were processed

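RNA of 6 hearts, 3 per genotype, had been measured on Affymetrix Mouse Gene 1.0 ST arrays from Trizol extracts, per the labels' protocols. The deposited log2 values were made by the authors with RMA (background correction, quantile normalisation, probe summary) and Partek, per the submitters' processing notes; their versions, and a genome build, are not given in the sources read for this work. Of 28853 rows, 21789 carried exactly 1 symbol in the platform annotation and were tested. All 61 members matched RefSeq by Entrez identifier, with 0 symbols changed.

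Each row was fitted with limma 3.58.1 in R 4.3.3 (lmFit and eBayes, default prior, genotype only, two-sided), with Benjamini-Hochberg adjustment across the tested rows and a threshold of 0.05. The replicate is the mouse, per the labels. Errors are moderated SE, and intervals are 95%. The number of arrays limits the precision, with a median SE of 0.0731. On simulated data with 21789 rows the same code recovered 92% of rows changed by 0.5 and 100% of those changed by 1, with 4% false calls. These shares check the code and need not hold for the measured rows. In the hearts, Gadd45b at 0.547 and Lcn2 at 0.66 passed (limma adjusted p = 0.0370 and 0.0474). The NF-kB target Saa3 at 0.553 and the macrophage marker Cd68 at 0.617 did not (0.173 and 0.0622).

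The members and lists were chosen with earlier results of these data known. Genes named are members with an unadjusted p below 0.05, a core axis of ligands, receptors and NF-kB genes, and up to 4 of smallest p in each related list; other names were added after values had been seen. Promoter sequences are from RefSeq, GRCm38.p6.

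Hearts are numbered by the sample titles; the descriptions number them differently. Same-numbered hearts correlated in their deviations from the group means at 0.155, -0.011 and -0.104. Differently numbered hearts correlated at -0.207 to 0.234. The title numbers were therefore not taken to pair the hearts. Whether the hearts are paired under another numbering was not tested. Alternatives were a replicate block, other scalings, filters, priors, weights and thresholds, other row choices and leaving out each heart.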

Additional observations from a re-analysis of the deposited data

How the results depend on the processing

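Over all tested rows 209 passed. There were 97 with a replicate block, 493 without the dimmest 40% of rows, 579 with a trended and robust prior, 476 at an adjusted p below 0.10, and 84 (without wild-type heart 2) to 147 (without transgenic heart 1) with 1 heart left out. Members called stayed at 0 in all 15 alternative settings, with only 39 members tested without the dimmest rows. NF-kB targets called were 0 with the replicate block (adjusted p = 0.114 for Gadd45b and 0.0859 for Lcn2), 0 with all rows and 0 to 1 with 1 heart left out, against 2. They were 3 with centred arrays, without the dimmest rows, with the trended prior, with array weights and at the looser threshold. Adaptors called were 1 without the dimmest rows, 1 with the trended prior and 1 at the looser threshold, against 0. The members split 27 higher to 34 lower, but 34 to 27 after further quantile normalisation. Of the named members, 13 changed sign under some setting, and no member at all was called under any. After quantile normalisation Cd40 was 0.0039, Tnfrsf1b 0.0197, Tnfrsf11a 8e-04, Traf4 0.0111, Traf6 0.0231 and Traf2 0.0178. With centred arrays Tnfrsf11a and Tnfaip3 were 0.0133 each, and with array weights Tnfrsf1b was 0.0097, Tnfrsf12a 0.0833 and Traf2 0.0273. With 1 heart left out, Ikbkb ranged from -0.0133 to 0.0267, Relb from -0.0683 to 0.0317, Tnfrsf1b from -0.05 to 0.025, Tnfrsf12a from -0.1367 to 0.1133, Tnfaip3 from -0.0933 to 0.0867, Tnfrsf11a from -0.1017 to 0.0633, Traf6 from -0.055 to 0.01, Traf2 from -0.0817 to 0.0383, Traf4 from -0.08 to 0.03, Ltb from -0.01 to 0.11, Nfkbie from -0.0117 to 0.0633 and Cd40lg from -0.0283 to 0.1667. The cause of these shifts was not tested. With 3 arrays a group, dim rows limit what could be seen.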

Other observations

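The members did not vary evenly over the hearts. Transgenic heart 2 held the lowest value of 19 of the 61 members. In 7 members the highest value was in wild-type heart 1 and the lowest in transgenic heart 2. They were the receptors Tnfrsf1b, Tnfrsf10b, Tnfrsf12a and Tnfrsf13b, the inhibitor Nfkbiz, the subunit Rel and Tnfaip8l3. The shares of all genes with these patterns were not determined, so neither count can be called particular to the family. Over all tested rows, the deviations of these 2 hearts from their group means correlated at -0.207.

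Some members are neighbours on a chromosome. Of 9 adjacent pairs of members, 2 had differences of the same sign and 7 of opposite sign. On chromosome 17 the order Ltb, Tnf, Lta had differences of 0.05, -0.46 and -0.15, and on chromosome 7 Tnfrsf26, Tnfrsf22 and Tnfrsf23 had 0.13, -0.16 and 0.27. Tnfaip8 was measured by a second row, which differed by -0.04 where the brighter row differed by 0.07.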
